A study of Mus musculus with 23 samples.

Results

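The calcium/calmodulin-dependent protein kinases (CaM kinases) of striatal medium spiny neurons (MSNs) are described here through 10 genes of this family, CAMKK1, CAMKK2, CAMK1, CAMK1D, PNCK, CAMK4, CAMK2A, CAMK2B, CAMK2D and CAMK2G. They were chosen by symbol, as every probe of the array report that carries one of these gene names, which gave 30 of 45281 probes and 10 of 30854 names. The samples were mRNA on tagged ribosomes from the dopamine-depleted striatum of single mice, measured on 23 Illumina Mouse WG-6 arrays. All mice were of the C57BL/6J/Swiss-Webster strain, 71 days old, and carried ribosomal protein L10a fused to EGFP under either the DRD1A promoter, which marks direct pathway MSNs, or the DRD2 promoter, which marks indirect pathway MSNs. The DRD2 promoter is also active in cholinergic interneurons. Every mouse had received a unilateral 6-OHDA lesion of the medial forebrain bundle at 35 days, after desipramine and pargyline, so no group was free of the lesion. The acute LDOPA groups then received saline for 21 days and the chronic LDOPA groups LDOPA (6 mg/kg) and benserazide (15 mg/kg) in repeated daily doses. All mice received LDOPA with benserazide on day 22 and striata were dissected 40 min later, so that no group was free of LDOPA either. The labels gave 7 acute and 8 chronic arrays for the DRD1A line, and 4 of each for the DRD2 line. The study's methods give other group sizes, and the labels were followed. Replicates are named by BeadChip number and position, as in 2D.

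CaM kinases are serine/threonine kinases that calcium switches on through calmodulin. CAMKK1 and CAMKK2 are the upstream kinases, which phosphorylate and activate the monomeric kinases of the CAMK1 group (CAMK1, CAMK1D and PNCK) and the largely nuclear CAMK4, a kinase of the transcription factor CREB1. CAMK2A, CAMK2B, CAMK2D and CAMK2G are the subunits of the multimeric CaMKII, which holds its activity by phosphorylating itself and is known for its part in synaptic plasticity at glutamatergic synapses, including those of cortical axons on MSNs.

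Each array measured a probe, a short oligonucleotide that matches a part of a transcript, as the mean fluorescence of many beads. Between 13114 and 17443 probes per array were detected, that is, brighter than negative control probes at a detection p under 0.05. Arrays 1D and 3A of DRD2 chronic correlated at 0.990, where no other pair exceeded 0.928, and were averaged as 1 sample, which left 22 samples and n = 3 in that group. BeadChips were not balanced over groups. BeadChip 1 held 4 DRD1A acute and 2 DRD2 chronic arrays and none of the other groups, and the dimmest probe on its arrays read 65.1 to 70.3, against 94.0 to 121.6 elsewhere. All 6 markers of MSNs in general were detected on all 23 arrays by their brightest probes. DRD2 lay between 9.95 and 11.46 on the log2 scale in the DRD2 line and between 7.11 and 7.76 in the DRD1A line. DRD1A overlapped between the lines, since DRD2 acute 2C (8.42), DRD2 chronic 4A (8.50) and DRD2 chronic 1A (9.28) lay within the range of the DRD1A line (8.12 to 10.35), and 1A also had the lowest DRD2 level of its line. PDYN, a direct pathway marker, lay between 9.90 and 11.42 in DRD2 chronic and between 7.77 and 9.16 in DRD2 acute arrays. The highest PENK1 level of the DRD1A line, 10.09 in DRD1A chronic 3C, lay under the lowest of the DRD2 line, 10.26.

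Transcripts of 7 of the 10 CaM kinase genes were detected on all 23 arrays by at least 1 probe, namely PNCK, CAMK4, CAMK2A, CAMK2B, CAMK2D, CAMK2G and CAMKK2. Of the 30 probes, 9 (30%) were detected on every array, against 14% of all probes, and 10 on no more than 5 arrays. The isoform-specific CAMK2D probe 940543 was detected on 23 arrays and the other isoform-specific CAMK2D probe, 1580397, on 1, and 8 of the 10 CAMK2D probes were detected on no more than 5. For CAMK2A, probes 2630600 and 3060288 were detected on 23 arrays, while probe 160070, which the array annotation assigns to another transcript of the gene, was detected on 2. Each CAMK1D probe was detected on few arrays (4, 9 and 12), and the single CAMKK1 probe on 19. Levels of different probes are not set against each other, because probes differ in how well they bind. The array platform's annotation named the same gene for 29 of the 30 probes and had no entry for the CAMKK1 probe. It also gave 6 probes of clone names to CAMK2B, CAMK2D, CAMK2G or CAMKK2, which are not among the 30. None of the 3 of these that could be tested passed, and 3 had signals too low to be kept.

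**Figure D1:**
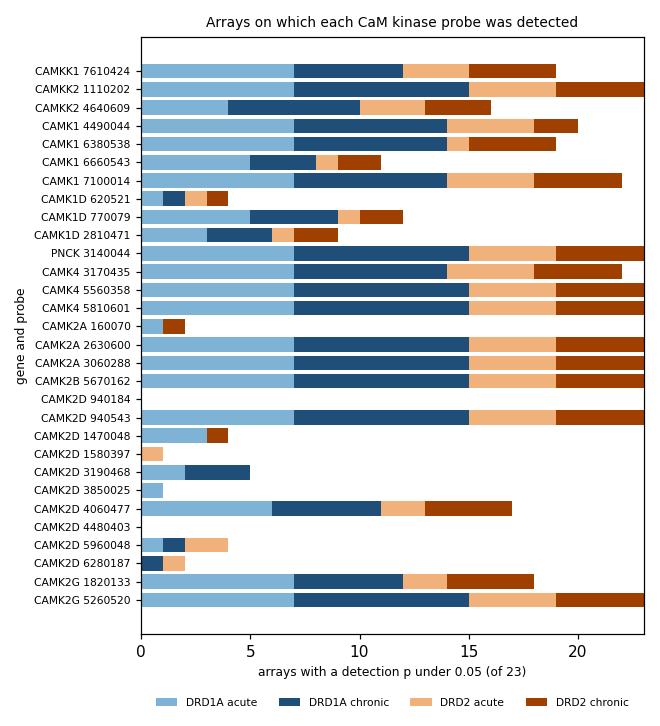
Number of arrays (of 23) on which each of the 30 CaM kinase probes was detected at a detection p under 0.05, stacked by group. CAMK2D probes 940184 and 4480403 were detected on no array, and 9 probes on all 23.

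Groups were compared on quantile-normalized log2 signals, where a difference of 1 is a doubling of signal, with limma's moderated tests on all 32255 probes above a filter on low signal. Of the 30 CaM kinase probes 29 passed that filter, and CAMK2D probe 4480403 did not. Calls were made at a p under 0.05 after Benjamini-Hochberg adjustment over the whole 32255. In a test for any difference among the 4 groups, 1 of the 29 probes was called, that of PNCK (adjusted p = 0.0139), where 0.295% of all probes were. At an unadjusted p under 0.05 there were 2 of 29 (6.9%), PNCK and CAMK4 probe 3170435, where 10% of all probes passed.

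PNCK, also known as CaM kinase I beta, was lower in chronic than in acute LDOPA samples of the DRD1A line. Its log2 signal in the 7 acute samples was 8.37 in 1B, 8.42 in 1C, 8.16 in 1E, 8.16 in 1F, 7.87 in 2D, 8.12 in 3B and 8.11 in 4B. In the 8 chronic samples it was 7.84 in 2A, 7.56 in 2E, 7.57 in 3C, 7.44 in 3D, 7.71 in 3E, 7.77 in 4C, 7.66 in 4D and 7.89 in 4F. All chronic samples but 4F lay below the lowest acute sample, 2D. The group means were 8.17 ± 0.18 (SD, n = 7) and 7.68 ± 0.15 (SD, n = 8), so that PNCK fell by 0.49 in log2 signal (standard error 0.077, 95% interval -0.65 to -0.33, adjusted p = 0.0231), a 1.40-fold difference. This was the only CaM kinase call in any pairwise comparison of groups. Fewer cells of a type and less RNA per cell cannot be told apart in such bulk samples.

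In the DRD2 line PNCK was at 7.78 in 2C, 7.73 in 2F, 7.84 in 3F and 7.58 in 4E after acute LDOPA, and after chronic LDOPA at 7.59 in 1A, 7.60 in 4A, and 7.76 and 7.45 in 1D and 3A, which count as 1 sample. The 2 groups overlapped, with means of 7.73 ± 0.11 (SD, n = 4) and 7.60 ± 0.01 (SD, n = 3) and a log2 difference of -0.14 (95% interval -0.37 to 0.10, adjusted p = 0.906). The SD of 0.01 is that left after 1D and 3A were averaged, and it understates the spread of the arrays. All 7 DRD1A acute samples lay above all 4 DRD2 acute samples, a log2 difference of 0.44 (standard error 0.093) that missed the threshold (adjusted p = 0.0652). Groups that did not overlap made up 1.49% of all probes in that comparison, and PNCK was the single such CaM kinase probe. After chronic LDOPA the lines differed by 0.08 (95% interval -0.13 to 0.29, adjusted p = 1). DRD1A acute was thus the group that stood above the other 3, whose means lay between 7.60 and 7.73. The change in DRD1A minus that in DRD2 was -0.35 (95% interval -0.64 to -0.07, unadjusted p = 0.0177), which did not pass over all probes (adjusted p = 0.883), so the 2 lines were not shown to differ in the PNCK response.

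The BeadChip moved with this result. The 4 DRD1A acute arrays on BeadChip 1 (8.16 to 8.42) all lay above the 3 on other BeadChips (7.87 to 8.12). Of the averaged DRD2 chronic arrays, 1D on BeadChip 1 read 7.76 and 3A on BeadChip 3 read 7.45. The other DRD2 chronic array on BeadChip 1, 1A, was at 7.59, beside 7.60 in 4A. Within BeadChips 2, 3 and 4, each with 1 DRD1A acute array, PNCK was lower after chronic LDOPA by 0.17, 0.54 and 0.33, so the direction held on each. With the BeadChip as a block the log2 difference was -0.38 and no longer passed (adjusted p = 0.256), as was so without BeadChip 1 (-0.36, adjusted p = 0.429). The call also ended with median centring of arrays in place of quantile normalization (-0.37, adjusted p = 0.0742) and without any 1 of DRD1A acute 1B or 1F or DRD1A chronic 2E, 3D or 3E (adjusted p from 0.0538 to 0.0671). Without DRD1A acute 2D the difference between the lines after acute LDOPA passed the threshold (0.49, adjusted p = 0.0323). Normexp background correction, which stretches low signals, gave -0.98 (adjusted p = 0.0382) for the fall in DRD1A.

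**Figure D2:**
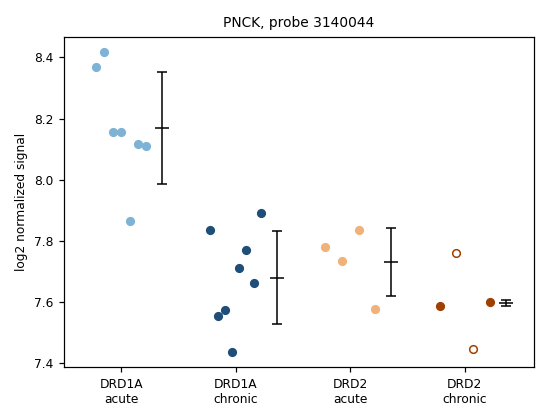
Log2 normalized signal of PNCK probe 3140044 in each array (points) by line and treatment, with the group mean and SD beside them (bars). Open points are the averaged arrays DRD2 chronic 1D and 3A. The 7 DRD1A acute samples sit between 7.87 and 8.42, above all DRD2 acute samples and above 7 of the 8 DRD1A chronic samples.

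CAMK4 was measured by 3 probes, and they did not move together. Probe 3170435 was lower in the chronic samples of the DRD1A line, by a difference that did not pass the test over all probes. Its 7 acute samples were at 9.57 in 1B, 9.31 in 1C, 9.0 in 1E, 9.52 in 1F, 9.80 in 2D, 9.43 in 3B and 9.88 in 4B. The 8 chronic samples were at 9.21 in 2A, 7.72 in 2E, 8.65 in 3C, 7.03 in 3D, 8.58 in 3E, 9.36 in 4C, 8.89 in 4D and 8.0 in 4F, so 6 of 8 lay below every acute sample. In 3D the probe was not detected, the single array of 23 where that was so. Means were 9.50 ± 0.30 (SD, n = 7) and 8.43 ± 0.79 (SD, n = 8). They differed by -1.07 in log2 signal (standard error 0.278, 95% interval -1.65 to -0.49), or 2.10-fold, with an unadjusted p of 0.00103 and an adjusted p of 0.236. In the test for any difference among the 4 groups this probe was just outside the threshold (adjusted p = 0.0572), and it passed with 23 separate arrays (adjusted p = 0.0336) and with only probes detected on every array of a group (adjusted p = 0.0251). By the methods' analysis of variance it did not pass over all probes, although Tukey's HSD within the probe was under 0.05 for the DRD1A groups and for the lines after chronic LDOPA. Without 3D the difference in DRD1A was -0.87 (adjusted p = 0.344), and with normexp background correction -1.65 (adjusted p = 0.350). Within BeadChips 2, 3 and 4 the difference was -1.34, -1.34 and -1.13, and with the BeadChip as a block -1.26 (adjusted p = 0.309), so it was as large within BeadChips as across them.

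In DRD2 EGFP-L10a expressing MSNs the same CAMK4 probe was at 9.44 in 2C, 9.94 in 2F, 10.32 in 3F and 10.31 in 4E after acute LDOPA. After chronic LDOPA it was at 9.72 in 1A, 10.13 in 4A, and 9.57 and 9.82 in 1D and 3A. These groups overlapped, and the log2 difference was -0.15 (95% interval -1.01 to 0.70, adjusted p = 0.982). After chronic LDOPA all 8 DRD1A samples lay below all 3 DRD2 samples, a difference of -1.42 (standard error 0.364, 95% interval -2.18 to -0.66, adjusted p = 0.277), a 2.67-fold lower signal. Groups that did not overlap made up 1.72% of all probes in that comparison. Without DRD2 chronic 1A, whose line markers were mixed, the difference was -1.48 (adjusted p = 0.494). After acute LDOPA the lines overlapped and differed by -0.50 (95% interval -1.20 to 0.21). The change in DRD1A minus that in DRD2 was -0.92 (95% interval -1.96 to 0.12, adjusted p = 0.888).

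CAMK4 probe 5560358 went the other way in the DRD1A line. It was between 9.52 and 10.99, with a median of 10.72, in the 7 acute samples and between 10.31 and 11.41, with a median of 10.89, in the 8 chronic samples. These groups overlapped widely, and the log2 difference was 0.41 (95% interval -0.13 to 0.94, adjusted p = 0.735), an interval that does not reach the estimate of -1.07 from probe 3170435. In DRD2 it was at 9.84 in 2C, 10.73 in 2F, 10.58 in 3F and 11.69 in 4E after acute LDOPA and at 11.05 in 1A, 10.81 in 4A, and 11.06 and 11.21 in 1D and 3A after chronic LDOPA. The acute values spanned the chronic ones, with a log2 difference of 0.29 (95% interval -0.50 to 1.08).

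CAMK4 probe 5810601 was between 7.31 and 9.05, with a median of 7.83, in DRD1A acute and between 7.71 and 9.33, with a median of 7.91, in DRD1A chronic samples, a difference of 0.18 (95% interval -0.37 to 0.73). It was at 7.88 in 2C, 8.79 in 2F, 8.10 in 3F and 8.51 in 4E of DRD2 acute, and at 8.29 in 1A, 9.18 in 4A, and 9.01 and 9.06 in 1D and 3A of DRD2 chronic. After chronic LDOPA it was lower in DRD1A than in DRD2 by 0.72 on the log2 scale (unadjusted p = 0.0497, adjusted p = 0.812), with DRD1A chronic 3C (9.33) above every DRD2 chronic sample. All 3 probes thus gave lower values in the DRD1A line after each treatment, at differences from -0.15 to -1.42, none of which passed. By qRT-PCR on amplified cDNA left from the arrays, the study reports significantly higher CAMK4 in DRD2 than in DRD1A MSNs after chronic LDOPA. Across the 22 samples, with values centred on their group's mean, the 3 pairs of CAMK4 probes had Pearson correlations of 0.22, 0.13 and 0.14. Their unadjusted permutation p ran from 0.321 to 0.560. Spearman correlations were 0.33, 0.16 and 0.17, with an unadjusted permutation p from 0.134 to 0.485. Without the 2 samples farthest from the median the first Pearson correlation rose to 0.45 and the others were 0.09 and 0.11.

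**Figure D3:**
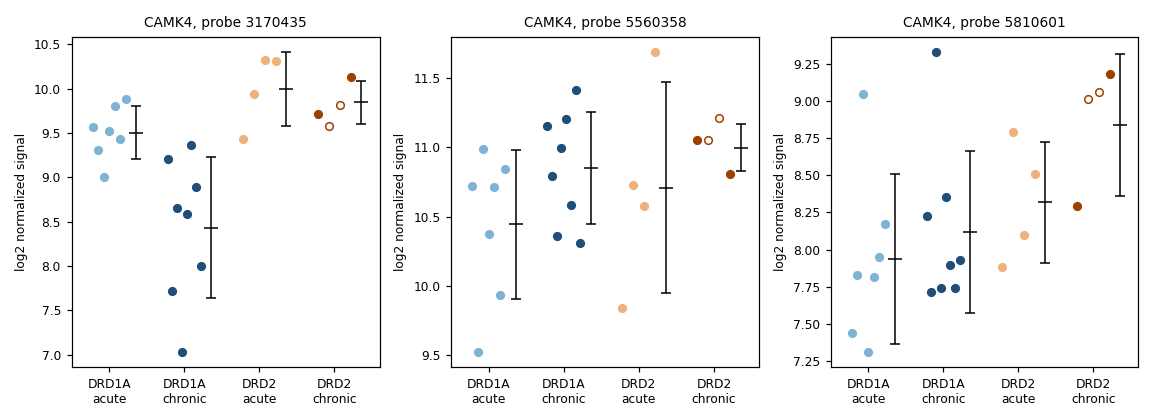
Log2 normalized signal of the 3 CAMK4 probes in each array (points) by line and treatment, with group mean and SD (bars), each panel on its own axis. Open points are the averaged arrays DRD2 chronic 1D and 3A. Only for probe 3170435 is the DRD1A chronic mean (8.43) the lowest of the 4 groups, with samples from 7.03 to 9.36, and in every panel the DRD1A groups overlap.

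The genes whose signal ran most like CAMK4 probe 3170435 over the 22 samples were PCP4L1 (Pearson r = 0.84), the cell adhesion gene ALCAM (0.84), the histone chaperone gene NAP1L1 (0.83), GUCY1A3, a subunit of soluble guanylate cyclase (0.82), and the ethanolamine kinase gene ETNK1 (0.82). For PNCK they were the protein kinase gene PRKX (0.75), WDR45L (0.75), the endosomal adaptor gene APPL1 (0.74), the histone gene HIST1H4K (0.72) and the GTPase activator gene ARHGAP24 (0.72). Each is among the highest correlations over all probes tested, of samples that share groups and BeadChips, and is given as a description. WDR45L was detected on 11 arrays and PRKX on 15.

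The upstream kinases CAMKK1 and CAMKK2 gave no call. CAMKK2, which also activates the AMP-activated protein kinase, had 2 probes. Probe 1110202, detected on all arrays, had means of 8.04 and 7.98 in the acute and chronic groups of DRD1A and of 8.18 and 7.67 in those of DRD2, and no 95% interval of a pairwise difference excluded 0. The chronic minus acute difference was -0.06 (95% interval -0.59 to 0.48) in DRD1A and -0.51 (95% interval -1.30 to 0.27) in DRD2. Probe 4640609, detected on 16 arrays, was at 8.12 in 2C, 7.47 in 2F, 8.44 in 3F and 7.22 in 4E of DRD2 acute, against 7.15 to 7.57, with a median of 7.27, in DRD1A acute and 7.16 to 7.83, with a median of 7.33, in DRD1A chronic. In DRD2 chronic it was at 7.03 in 1A, 7.65 in 4A, and 7.33 and 7.27 in 1D and 3A. The 2 high DRD2 acute samples, 2C and 3F, stood above all others. Its log2 difference was -0.48 for DRD1A minus DRD2 after acute LDOPA (unadjusted p = 0.0179, adjusted p = 0.419) and -0.49 for chronic minus acute LDOPA in DRD2 (unadjusted p = 0.0449, adjusted p = 0.790). On BeadChips 3 and 4, which each held 1 array of both DRD2 groups, the latter was -1.17 and 0.42. The 2 CAMKK2 probes had a correlation of -0.04 across samples (permutation p = 0.855). CAMKK1 had means of 7.87, 7.51, 8.17 and 7.78 in the same order of groups, with a chronic minus acute difference of -0.35 (95% interval -0.94 to 0.23) in DRD1A and -0.39 (95% interval -1.26 to 0.47) in DRD2.

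In the CAMK1 group beside PNCK, none of the 4 CAMK1 probes and 3 CAMK1D probes had an unadjusted p under 0.05 in any comparison. CAMK1, a cytosolic kinase known for its part in axon and dendrite growth, was the most variable of these. Probe 4490044 ran from 7.95 to 10.44 in DRD1A acute, from 7.13 to 9.96 in DRD1A chronic and from 7.65 to 9.50 in DRD2 acute samples, and in DRD2 chronic it was at 7.08 in 1A, 7.17 in 4A, and 9.65 and 9.37 in 1D and 3A. Its within-group SD of 1.03 was the highest of the 29 probes. The 95% intervals for this probe were accordingly wide, from -1.64 to 0.51 for chronic minus acute LDOPA in DRD1A. Probe 7100014, detected on 22 arrays, gave narrower intervals, -0.65 to 0.52 in DRD1A and -0.57 to 1.16 in DRD2. CAMK1D probes gave differences from -0.06 to 0.06 in the 4 pairwise comparisons, close to background signal.

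CAMK2A, the alpha subunit of CaMKII, was lower in the chronic samples of the DRD1A line by both of its detected probes, at differences that did not pass over all probes. Probe 3060288 was between 7.87 and 9.67, with a median of 8.65, in DRD1A acute and between 7.44 and 9.16, with a median of 8.25, in DRD1A chronic samples, which overlapped. The log2 difference was -0.57 (standard error 0.241, unadjusted p = 0.0278, adjusted p = 0.573), and on BeadChips 2, 3 and 4 it was -1.44, -0.82 and -0.31. It was -0.32 with median centring, -0.87 without BeadChip 1 and -0.89 with normexp background correction (adjusted p from 0.586 to 0.721). Probe 2630600 was between 8.08 and 10.80 in DRD1A acute and between 7.58 and 8.74 in DRD1A chronic samples, a difference of -0.85 (95% interval -1.76 to 0.05, adjusted p = 0.667). In DRD2 the differences were 0.10 (95% interval -0.64 to 0.85) and -0.13 (95% interval -1.47 to 1.20). Although both differences were negative in DRD1A, the 2 probes did not follow each other from sample to sample (r = -0.04, permutation p = 0.848). In DRD2 acute, probe 2630600 was at 9.45 to 9.51 in 3 arrays and at 7.61 in 4E, and in DRD2 chronic it was at 7.53 in 1A, 8.88 in 4A, and 10.35 and 10.16 in 1D and 3A.

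Cortical excitatory neurons also hold CAMK2A and CAMK4 mRNA, and 5 markers of them were measured in these samples. NEUROD2 and NEUROD6 were detected on 23 arrays, TBR1 on 21, the vesicular glutamate transporter gene SLC17A7 on 20 and EMX1 on 1. The summed normalized signal of the 5 ran from 2175 to 3115 in DRD1A acute, 1911 to 2738 in DRD1A chronic, 873 to 1625 in DRD2 acute and 863 to 2444 in DRD2 chronic arrays. It was thus higher in DRD1A than in DRD2 after acute LDOPA, as PNCK was without a call, and the ranges of the 2 DRD1A groups overlapped. After chronic LDOPA the sum had medians of 2552 in DRD1A and 1866 in DRD2, with overlapping ranges, while PNCK differed by 0.08 between the lines. The 3 CAMK4 probes had lower means in DRD1A than in DRD2 after each treatment, without a call. Of the 4 markers of cholinergic interneurons, which also express DRD2, none was detected on every array. CHAT was detected on 4 arrays, and the 4 summed to 539 to 761 over all arrays. For 5 oligodendrocyte markers, 3 of them detected on every array, the sum ran from 2039 to 4490 in DRD1A acute, 2266 to 5683 in DRD1A chronic, 3027 to 5212 in DRD2 acute and 2941 to 8607 in DRD2 chronic arrays. The part of other cell types in the CaM kinase values was not tested.

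CAMK2B, the beta subunit that ties CaMKII to actin, gave closely spaced samples in the DRD1A line. Its signal lay between 10.76 and 11.64, with a median of 11.22, in DRD1A acute and between 11.02 and 11.62, with a median of 11.27, in DRD1A chronic samples. The log2 difference of 0.05 had a 95% interval of -0.23 to 0.34, which does not reach the PNCK estimate of -0.49. In DRD2 it was at 11.60 in 2C, 11.80 in 2F, 11.07 in 3F and 11.52 in 4E after acute LDOPA, and at 10.59 in 1A, 11.26 in 4A, and 11.22 and 11.42 in 1D and 3A after chronic LDOPA. The chronic minus acute difference there was -0.44 (95% interval -0.86 to -0.02, unadjusted p = 0.0413, adjusted p = 0.783), with overlapping groups. It was 0.35 on BeadChip 3 and -0.26 on BeadChip 4, so its direction was not shared by the 2 BeadChips that held both groups. Without DRD2 chronic 1A, which had the lowest DRD2 level of its line, the difference was -0.21. It was -0.16 without BeadChip 1 and -0.24 with median centring.

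CAMK2D and CAMK2G, the more widely expressed subunits, gave no call. The CAMK2D probe detected on all arrays, 940543, had means of 8.33, 8.16, 8.27 and 8.33 in the 4 groups, and its chronic minus acute difference was -0.17 (95% interval -0.58 to 0.24) in DRD1A and 0.06 (95% interval -0.54 to 0.66) in DRD2. CAMK2D probe 1580397 had an unadjusted p under 0.05 in 3 comparisons, but it was detected on only 1 array, DRD2 acute 4E, where it stood at 7.56 against 7.08 to 7.15 in the other DRD2 acute samples and 6.93 to 7.19 in the remaining groups. Both groups of each of these comparisons lie at background, and no fold is given. It was the single CaM kinase probe whose DRD2 acute and chronic samples did not overlap, where 6.9% of all probes did not. CAMK2G probe 5260520 had means of 7.76, 7.59, 8.02 and 7.71 and differed by -0.17 (95% interval -0.55 to 0.22) in DRD1A and -0.31 (95% interval -0.88 to 0.25) in DRD2. The other CAMK2G probe, 1820133, was detected on 18 arrays and differed by -0.25 (95% interval -0.62 to 0.11) and 0.18 (95% interval -0.35 to 0.72).

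**Figure D4:**
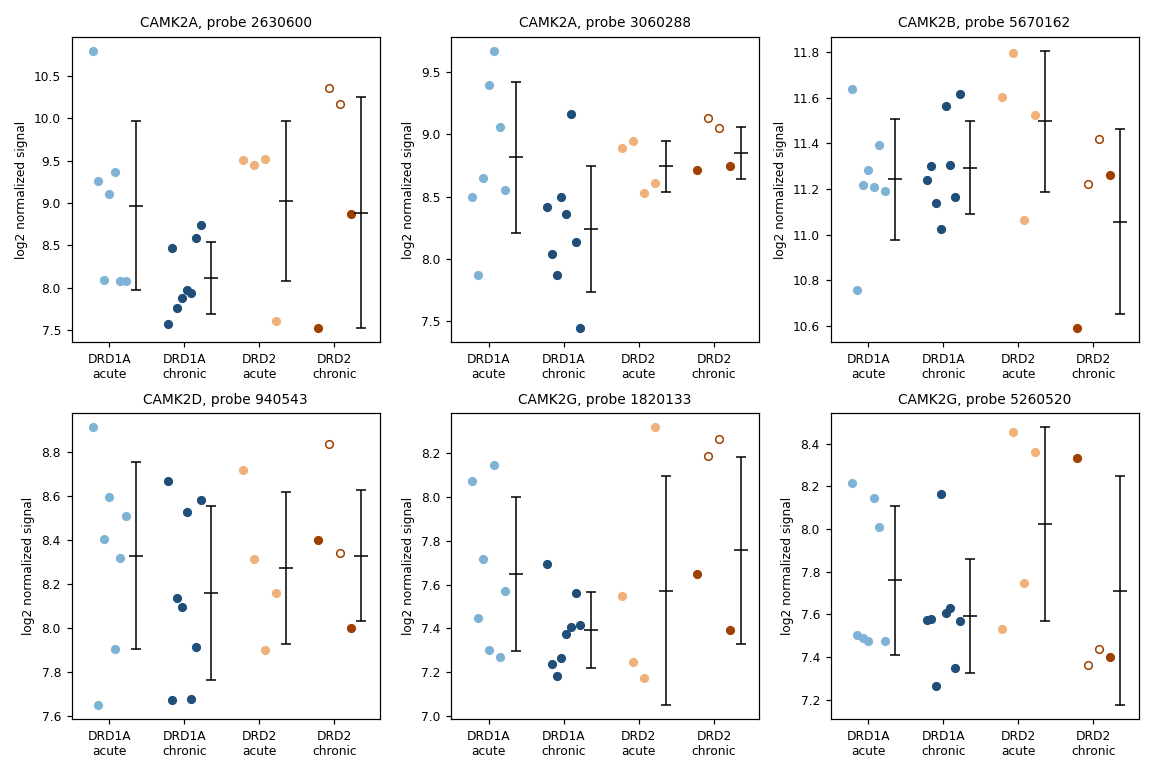
Log2 normalized signal of the CaMKII probes detected on 18 or more arrays, in each array (points) by line and treatment, with group mean and SD (bars), each panel on its own axis. Open points are the averaged arrays DRD2 chronic 1D and 3A. The groups overlap in every panel, and the DRD1A chronic means of both CAMK2A probes (8.12 and 8.24) are the lowest of their 4 groups.

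The share of the 29 probes at an unadjusted p under 0.05 lay near that of the whole array in each comparison. In DRD1A, chronic against acute LDOPA, 1 probe (PNCK) was called where 0.0341% of all probes were, and 3 (10.3%) had an unadjusted p under 0.05, those of PNCK, CAMK4 and CAMK2A, where 7.8% did. No CaM kinase probe was without overlap there, as 0.136% of all probes were. The median log2 difference was -0.06 over the 29 probes and 0.00 over all probes, with 18 of 29 (62.1%) lower against 48.5%. In DRD2, none was called by limma or by the methods' analysis of variance, where by limma 0.0031% of all probes were, with 3 of 29 (10.3%) at an unadjusted p under 0.05 against 6.28%. Between the lines after acute LDOPA none was called (0.158% of all probes), with 3 of 29 (10.3%) at an unadjusted p under 0.05 against 9.11%, and the methods' analysis of variance with Tukey's HSD called PNCK. After chronic LDOPA none was called by either test (0.0279% of all probes by limma), with 2 of 29 (6.9%) at an unadjusted p under 0.05, both of CAMK4, against 6.14%. For the difference between the lines in the chronic LDOPA response the count was 0, as it was for all probes (0%), with 2 of 29 (6.9%) at an unadjusted p under 0.05 against 5.57%.

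How large a change could have been missed is shown by the intervals. Of the 29 probes, 25 had a 95% interval within -1 to 1 on the log2 scale for chronic minus acute LDOPA in DRD1A, 20 in DRD2, 23 between the lines after acute and 22 after chronic LDOPA. Of the 9 probes detected on all arrays these were 7, 5, 7 and 5. For a probe near background a narrow interval bounds its signal, not its transcript. Across samples, no pair of probes of the same gene passed an adjusted p of 0.05 among 53 pairs (lowest adjusted p = 0.0719, Pearson r with a permutation test of 100000 resamples over 22 samples, and 5 pairs at an unadjusted p under 0.05). In the 10 pairs with both probes detected on at least 16 arrays, r ran from -0.08 to 0.35 and no unadjusted p was under 0.106.

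**Figure D5:**
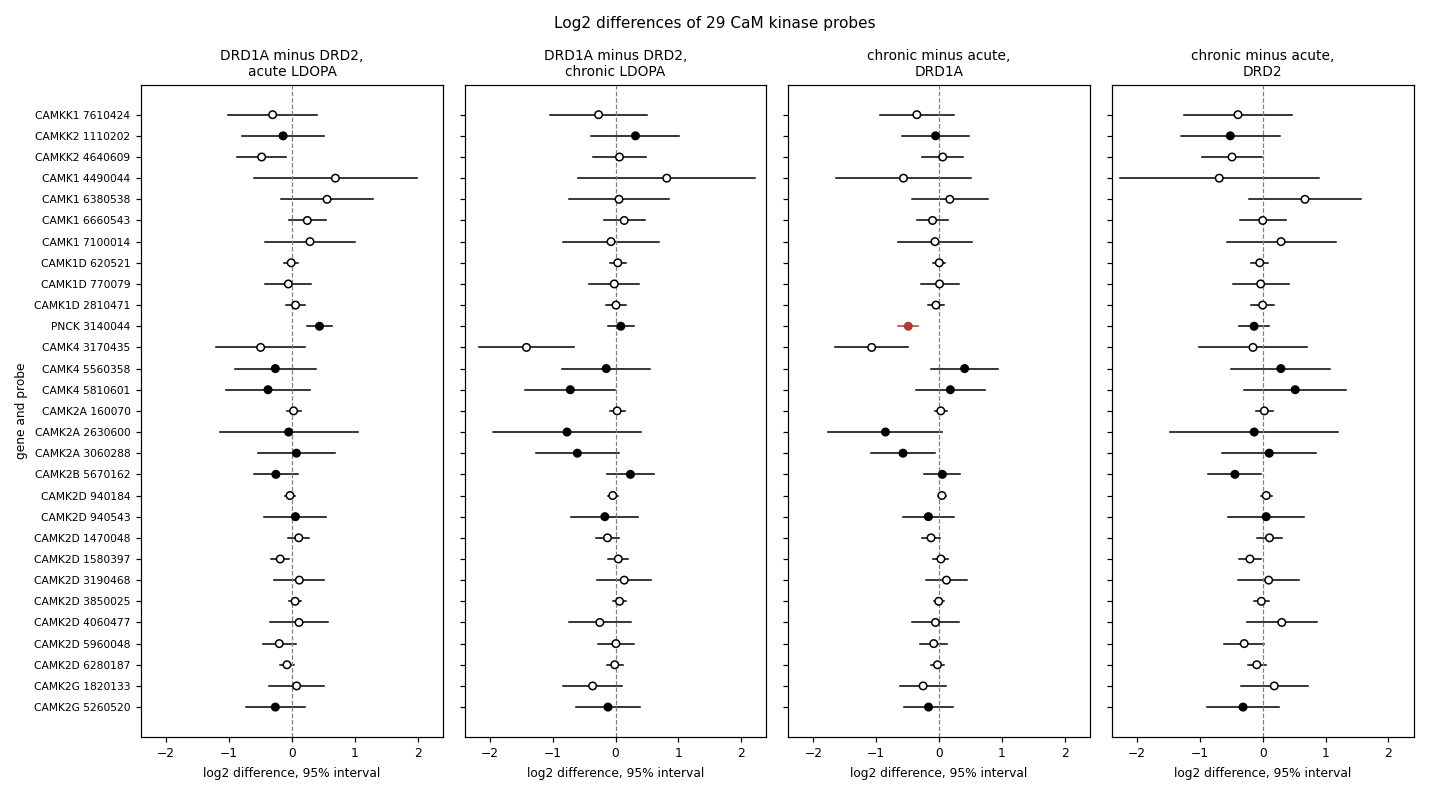
Log2 differences (points) with 95% intervals (lines) of the 29 CaM kinase probes tested, in 4 pairwise comparisons of groups. Filled points are probes detected on all 23 arrays and red marks the single call, PNCK at -0.49 for chronic minus acute LDOPA in DRD1A.

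Among other genes of calmodulin signalling, 1 of 38 probes of substrates and targets passed in DRD1A, chronic against acute LDOPA, where 0.0341% of all probes did, and 1 of 16 probes of other calmodulin-dependent enzymes passed between the lines after acute LDOPA, where 0.158% did. Each count is a single probe. CREB1, the transcription factor that CAMK4 phosphorylates, fell by 1.05 in log2 signal after chronic LDOPA in DRD1A (standard error 0.157, adjusted p = 0.0193), from 9.53 ± 0.22 (SD, n = 7) to 8.48 ± 0.42 (SD, n = 8), with 8 of 8 chronic samples below all acute samples. Groups did not overlap for 0.136% of all probes in that comparison. In DRD2 the same probe differed by -0.67 (unadjusted p = 0.00893, adjusted p = 0.680). All 3 chronic samples lay below all acute samples there, where 6.9% of all probes had groups without overlap. The change in DRD1A minus that in DRD2 was -0.38 (adjusted p = 0.903), so the lines were not shown to differ. The DRD1A call rested on 1 of 6 CREB1 probes (290008), the others giving -0.32 to 0.28. It did not hold with the BeadChip as a block (-1.03, adjusted p = 0.165), without BeadChip 1 (-1.03, adjusted p = 0.363), with median centring (-0.75, adjusted p = 0.102), or without DRD1A chronic 3D or 3E (-1.04 and -1.03, adjusted p = 0.0522 and 0.0546). PDE1A, a calmodulin-dependent cyclic nucleotide phosphodiesterase, was higher in DRD1A than in DRD2 after acute LDOPA by 1.20 (standard error 0.213, adjusted p = 0.0217), at 9.74 ± 0.29 (SD, n = 7) against 8.54 ± 0.57 (SD, n = 4). The other 2 PDE1A probes gave 1.17 (adjusted p = 0.110) and 1.23 (adjusted p = 0.212), and in all 3 every DRD1A acute sample lay above every DRD2 acute sample. Groups did not overlap for 1.49% of all probes in that comparison. After chronic LDOPA the lines differed by 0.40, 0.72 and 0.67 for these probes, with no call (adjusted p from 0.739 to 0.911). The PDE1A call did not hold with the BeadChip as a block (1.28, adjusted p = 0.113), without BeadChip 1 (1.38, adjusted p = 0.126), with median centring (1.13, adjusted p = 0.204), by the methods' analysis of variance with Tukey's HSD, or without DRD2 acute 2F, DRD1A acute 3B or DRD2 acute 3F (1.19, 1.17 and 0.97).

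The remaining probes of these lists gave no call. Of 6 probes of calmodulins and calmodulin-binding buffers, 4 were lower after chronic LDOPA in DRD1A (median log2 difference -0.095) and 5 in DRD2 (-0.23), the lowest p in DRD1A being that of CALM2 (-0.41, adjusted p = 0.618) and in DRD2 that of GAP43 (-0.53, adjusted p = 0.498). The other CALM2 probe gave -0.10 in DRD1A. Of 13 probes of CaMKII inhibitors and related kinases, 10 had a lower value in DRD1A after chronic LDOPA (median -0.14), while the smallest p there was that of the doublecortin-like kinase gene DCLK1, which had a higher value (0.68, unadjusted p = 0.0117, adjusted p = 0.461). CAMK2N1, an inhibitor of CaMKII, differed by -0.77 (standard error 0.183, unadjusted p = 0.000433, adjusted p = 0.434) between chronic and acute LDOPA in DRD2, by -0.28 in DRD1A, and by -0.52 between DRD1A and DRD2 after acute LDOPA. Its other probe gave -0.67, -0.28 and -0.52. Of 12 probes of calcineurin, the calmodulin-dependent phosphatase, and its regulators, 5 were lower in DRD1A after chronic LDOPA, with the smallest p for a PPP3CA probe (-0.60, adjusted p = 0.402). The other PPP3CA probes gave -0.22 and 0.08. Of 16 probes of other calmodulin-dependent enzymes 12 were higher there. PDE1C probe 2360685 was higher by 1.45 (adjusted p = 0.186) and in DRD2 by 1.28 (adjusted p = 0.734). The other PDE1C probes gave 0.15, 0.06 and 0.44 in DRD1A and 0.21, -0.14 and 0.72 in DRD2. Of 38 probes of substrates and targets of the kinases, 27 were lower in DRD1A after chronic LDOPA, 1 of them called, with a median of -0.08 beside 0.00 over all probes. Of the 38, 9 had an unadjusted p under 0.05, a larger share than the 7.8% of all probes. Of these 9, 2 were probes of CREB1, 2 of MEF2C and 3 of GRIA1, so the probes are not separate genes. SRF was the single one with a higher value (0.37, adjusted p = 0.613), and after CREB1 the smallest p were those of MEF2C (-0.57, adjusted p = 0.363) and DLG4 (-0.54, adjusted p = 0.413). The other MEF2C probes gave 0.06, -0.31 and -0.65.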

How the data were processed

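Ribosome-bound mRNA of single striata was amplified, biotin labelled and hybridized to Illumina Mouse WG-6 v2 BeadChips. The authors deposited intensity values, the mean signal of the beads of each probe from GenomeStudio, neither normalized nor background subtracted. The deposited detection p-values compare each probe with negative controls of its array, and the deposited report also gives bead numbers and their standard errors as other values. The authors' deposited log2 values, quantile normalized, served as an alternative. They were linked to probes by value (45088 of 45281 probes, all 30 of the CaM kinases), and their array medians lay between 7.1171 and 7.1182. In the report 4 columns of 1 array of no listed sample were not used.

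Groups came from the labels. Per the study's methods, each array was 1 mouse. Signals were quantile normalized, given a floor of 1 and log2 transformed. Probes above the 20th percentile on all arrays of at least 1 group were kept (32255, 71.2%). DRD2 chronic arrays 1D and 3A were averaged. The plan written at the outset gives this pair as 1D and 4A, from an earlier numbering of the BeadChips. A mean per group was fitted with limma 3.58.1 in R 4.3.3 (18 residual and 1.41 prior degrees of freedom), two-sided, with Benjamini-Hochberg adjustment over all probes kept. Limma replaced the methods' analysis of variance with Tukey's HSD, which was run as an alternative. The scripts were checked on simulated data. No sequence of a probe was used.

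The members, the gene lists and the tests were chosen with earlier results of these data known. Values per sample are given for all CAMK4 probes, a gene the study also followed by qRT-PCR, for called probes and for up to 4 further CaM kinase probes per comparison with the smallest unadjusted p under 0.05. Of the lists, called probes and the probes with the smallest p are named. Alternatives were 23 separate arrays, a BeadChip block, no BeadChip 1, median centring, normexp background correction, the authors' values, no filter, a detection filter, a floor of 16 and leaving out each array. The number of arrays limits precision. Some genes of the lists are not reported here.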

Additional observations from a re-analysis of the deposited data

Results flagged for a closer look

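In 87 groups of 4 to 8 samples, over the 29 probes tested, 10 held a sample that stood apart from the rest of its group by Dixon's test, which picks out about 1 in 20 groups by chance. DRD2 acute 4E was such a sample for CAMK2A probe 2630600 (7.61, the nearest other sample being at 9.45), CAMK2A probe 160070 (7.0 against 7.12) and CAMK2D probe 1580397 (7.56 against 7.15). DRD1A chronic 3C was one for CAMK4 probe 5810601 (9.33 against 8.36) and CAMK2D probe 3190468 (8.41 against 7.26). CAMK2G probe 5260520 stood apart in DRD1A chronic 3D (8.16 against 7.63) and CAMK1 probe 6660543 in DRD1A acute 1E (7.96 against 7.45). The others were of CAMK2D probes near background, 1470048 in DRD1A acute 3B (7.54 against 7.25), 5960048 in DRD1A acute 1F (7.67 against 7.14) and 6280187 in DRD2 acute 2F (7.39 against 7.16). Of these 10 probes, CAMK2A probe 2630600 and CAMK2G probe 5260520 were detected on all arrays, as was CAMK4 probe 5810601.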

How the results depend on the processing

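Differences of single probes were recomputed under the alternatives only for CaM kinase probes with an unadjusted p under 0.05 and for called probes of the lists. None of these turned direction. They were picked for lying away from 0, so a turn was unlikely from the start, and the direction of the other probes was not followed. In DRD1A, chronic against acute LDOPA, the CaM kinase call (PNCK) ended with the BeadChip as a block, without BeadChip 1, with median centring and with only probes detected on every array of a group (0 called each), and leaving out 1 array gave 0 to 1. Between the lines after acute LDOPA the methods' analysis of variance with Tukey's HSD called 1 in place of 0, and leaving out 1 array gave 0 to 1. For any difference among the 4 groups, 2 in place of 1 (PNCK and CAMK4 probe 3170435) were called with 23 separate arrays and with the detection filter, 0 with the block, without BeadChip 1 and with median centring, and 1 to 2 leaving out 1 array. For the other calmodulin genes, the call between the lines after acute LDOPA (PDE1A) fell to 0 with the block, without BeadChip 1, with median centring and by Tukey's HSD (0 to 1 leaving out 1 array). Their count in DRD1A, 1 (CREB1), fell to 0 with the block and without BeadChip 1 (0 to 1 leaving out 1 array), and with median centring it stayed at 1 although CREB1 did not pass there. Their calls for any difference, 2, became 0 with the block and without BeadChip 1, 4 with the detection filter, 1 by the analysis of variance, and 1 to 3 leaving out 1 array. With median centring 1 pair of probes of one gene passed in place of 0, both of CAMK1. The alternatives on the gene lists and on probe pairs were added after seeing the data. The cause of these changes was not tested. The median difference of all probes was not followed when leaving out 1 array or for the methods' analysis of variance. None of the other alternatives moved it by over 0.1. No paired analysis was possible because the labels' replicate names are array positions that pair no samples. Signals near background, as for most CAMK2D and CAMK1D probes, limit what can be seen.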
